A study of Arabidopsis thaliana with 12 samples.

Results

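FATB, AT2G38550 and AT4G13550 are 3 Arabidopsis thaliana genes that act on fatty acids and lipids of the chloroplast. They were taken as the rows of the array whose platform annotation named that gene and no other, which gave 1 row for each, 3 of 692 rows with 1 gene name and of 3439 rows in all. Another row names FATB together with other genes, and another names AT2G38550 in the same way. Neither can be assigned to 1 gene, and neither was used. The genes were chosen by their function among rows whose intensity difference between stn7stn8 and WT was already known, so that difference is given below as a description with no test.

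The series holds expression arrays of total RNA from ecotype Columbia 0, of which 6 are titled WT and 6 stn7stn8. The mutant lacks STN7 and STN8, a pair of thylakoid protein kinases, of which STN7 acts mainly on the light-harvesting proteins and STN8 mainly on core proteins of photosystem II. Genotype rests on the titles alone, because the source field gives WT for all 12, and the sources used here do not give organ, age, light, mutant alleles or the origin of replicates (plants or repeat arrays). Replicates 4 and 5 of stn7stn8 held the same values to within 4e-10 and were counted once, which leaves 6 against 5 arrays. Since replicates may be technical, the p-values printed for other genes speak only of the scatter among arrays.

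Plants make most of their fatty acids in the plastid stroma, on acyl carrier protein (ACP). A thioesterase must free the chain from ACP before it can leave, envelope membrane proteins take part in its export, and lipases can free fatty acids again from finished membrane lipids. FATB is the thioesterase that favours saturated chains, chiefly palmitate. AT2G38550 belongs to the fatty acid export (FAX) family, membrane proteins whose best studied member, FAX1, sits in the inner envelope, and it is also called FAX3. AT4G13550 is a plastid lipase, described as HIL1, that releases linolenic acid from the galactolipid MGDG in heated leaves.

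After quantile normalization all 3 genes had less signal in stn7stn8 than in WT, although for FATB the log2 difference was 0.028 on the values as deposited. FATB was at 0.673 of its WT level, AT2G38550 at 0.430 and AT4G13550 at 0.237 (n = 6 and 5). The median log2 difference of the 3 was -1.22, and that of all 3229 tested rows was 0.058. For AT2G38550 and AT4G13550 all stn7stn8 arrays lay below all WT arrays, while for FATB the genotypes overlapped. Such a separation with lower stn7stn8 values was seen in 13.2% of all tested rows, and limma called 19.6% of them lower at an adjusted p under 0.05. In tissue RNA, fewer cells of a type and less transcript per cell cannot be told apart.

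**Figure D1:**
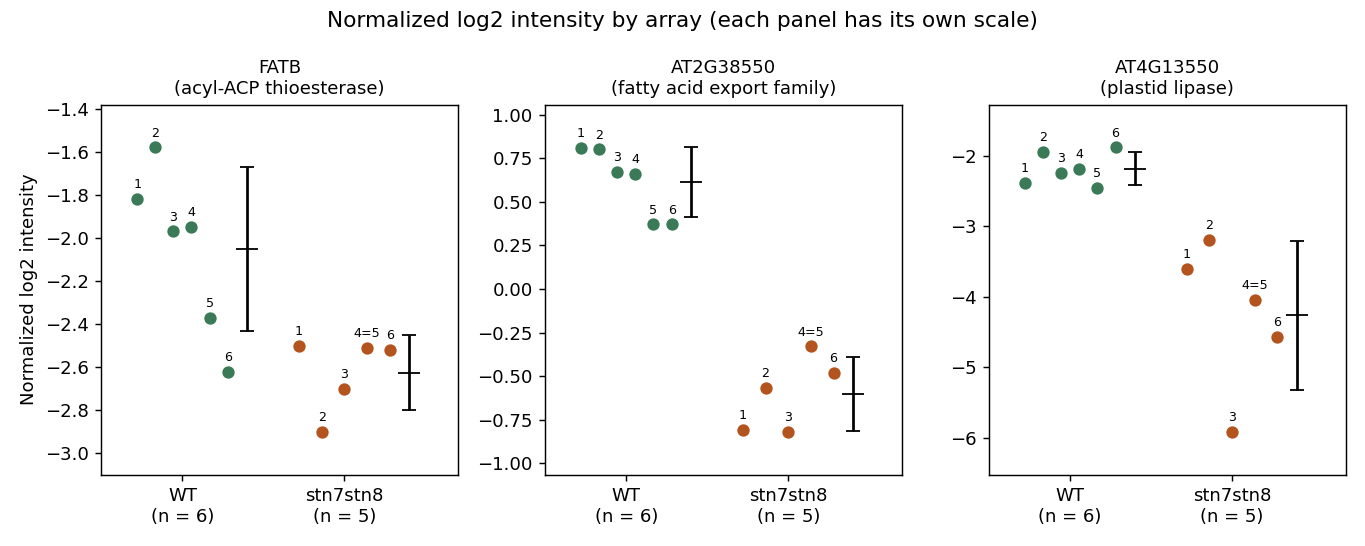
Normalized log2 intensity (vertical axis) of FATB, AT2G38550 and AT4G13550 on each array, with WT in green and stn7stn8 in orange; numbers are replicates, 4=5 marks the identical pair counted once, and the black marks are the mean ± SD (n = 6 and 5). WT replicate 6 of FATB, at -2.62, lies among the stn7stn8 arrays, while the other 2 genes show a gap between the groups.

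FATB, the thioesterase, was the gene with the smallest difference. Its normalized log2 intensity in WT was -1.82 and -1.58 in replicates 1 and 2, -1.97 and -1.95 in replicates 3 and 4, and -2.37 and -2.62 in replicates 5 and 6. In stn7stn8 it was -2.50, -2.90 and -2.70 in replicates 1, 2 and 3, -2.51 in the identical replicates 4 and 5, and -2.52 in replicate 6. WT replicates 1 to 4 lay well above the mutant, WT replicate 5 lay just above its highest array, and WT replicate 6 lay below 3 of the 5 mutant arrays. The means were -2.05 ± 0.38 (SD, n = 6) in WT and -2.63 ± 0.17 (n = 5) in stn7stn8, a log2 difference of -0.57 ± 0.17 (SE). Without WT replicates 5 and 6 the difference was -0.79, and without WT replicate 6 alone it was -0.69.

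The difference of FATB depended on the scaling between arrays. As deposited, its intensity averaged 0.208 ± 0.0618 (n = 6) in WT and 0.205 ± 0.0324 (n = 5) in stn7stn8, a ratio of means of 0.987. The log2 difference on those values was 0.028 ± 0.22 (SE), and the WT range of 0.121 to 0.276 enclosed the whole stn7stn8 range of 0.152 to 0.232. The deposited arrays of the 2 genotypes had similar summed intensities, 3608 to 3682 in WT and 3586 to 3660 in stn7stn8, but median log2 intensities of -1.50 ± 0.13 and -0.96 ± 0.024, and the median row differed by 0.50 (log2). Relative to that median row, FATB was lower by the same order of size as after normalization, at -0.48. With each array centred on its median its difference was -0.51 ± 0.19, and after cyclic loess it was -0.64 ± 0.19 (SE). On the deposited scale the FATB row was thus about as bright in both genotypes while the median row was brighter in stn7stn8. Which of the scales follows transcript amount was not tested.

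AT2G38550, the export family member, had the widest gap between genotypes relative to its spread within them. Its normalized log2 intensity in WT ran from 0.37 to 0.81 with a median of 0.66. In stn7stn8 it was -0.81, -0.57 and -0.82 in replicates 1, 2 and 3, -0.33 in the identical replicates 4 and 5, and -0.48 in replicate 6. The lowest WT array lay 0.70 above the highest stn7stn8 array, a gap wider than the range within either genotype. The means were 0.61 ± 0.20 (SD, n = 6) and -0.60 ± 0.21 (n = 5), which is a log2 difference of -1.22 ± 0.12 (SE), or 2.33-fold less signal in the mutant.

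The lower signal of AT2G38550 was present in the deposited values too. There it averaged 1.48 ± 0.241 (n = 6) in WT and 0.773 ± 0.104 (n = 5) in stn7stn8, with the lowest WT array at 1.19 and the highest stn7stn8 array at 0.908. On that scale, lower stn7stn8 values without overlap were seen in 5.61% of all tested rows. The log2 difference was -0.93 ± 0.13 (SE) as deposited, -1.47 ± 0.12 after median centring and -1.17 ± 0.12 after cyclic loess. Leaving out 1 array at a time gave differences from -1.31 to -1.16.

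AT4G13550, the galactolipid lipase, had the largest log2 difference of the 3 under each of the 4 scalings, though not with the median intensity added before log2, and the widest spread within stn7stn8. In WT its normalized log2 intensity ran from -2.46 to -1.88 with a median of -2.22. In stn7stn8 it was -3.60, -3.19 and -5.92 in replicates 1, 2 and 3, -4.04 in the identical replicates 4 and 5, and -4.57 in replicate 6. Every stn7stn8 array lay below the WT range, but they were scattered over 2.73 log2 units, with replicate 3 far down. The means were -2.18 ± 0.23 (SD, n = 6) and -4.26 ± 1.06 (n = 5), a log2 difference of -2.08 ± 0.39 (SE) or 4.23-fold less signal. Only 7 of the 3229 tested rows had a lower difference. Without stn7stn8 replicate 3 the difference was -1.67, and without replicates 1 and 2, the brightest mutant arrays of this row, it was -2.65.

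The AT4G13550 row was dim, and its fold change is less certain than its direction. As deposited, it averaged 0.183 ± 0.0321 (n = 6) in WT and 0.0750 ± 0.0382 (n = 5) in stn7stn8. The log2 difference on those values was -1.48 ± 0.36 (SE), or 2.79-fold less signal, and the gap between the genotypes was 0.14, against 0.73 after normalization. The highest WT value was 1.56 times the lowest, whereas in stn7stn8 that ratio was 5.38, from 0.0226 to 0.121. On the array of stn7stn8 replicate 3 only 24 rows had a lower value above 0. Among tested rows its SD in stn7stn8 stood at the 97.6 percentile, and its SD in WT at the 56.4 percentile. When the median intensity was added before taking log2, which compresses dim values, the difference was -0.43 ± 0.057 (SE). No detection flag comes with the table, so whether the dimmest of these values exceed the array background was not tested.

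A position within the array does not depend on how a whole array is scaled. Quantile normalization works from these same positions, so they are not a separate check of the normalized differences. By percentile, 13.2% of all tested rows were lower in stn7stn8 without overlap, the same share as after normalization. AT2G38550 stood at the 87.0 to 90.9 percentile of the measured rows in WT and at the 63.4 to 76.0 percentile in stn7stn8. AT4G13550 moved from between the 17.1 and 30.8 percentile to between the 0.766 and 7.63 percentile. For FATB the WT arrays spread from the 14.3 to the 39.7 percentile and the stn7stn8 arrays from the 10.6 to the 16.3 percentile. The mean percentile of FATB was 27.1 ± 9.23 (SD, n = 6) in WT and 14.5 ± 2.56 (n = 5) in stn7stn8, so its row ranked lower among the others in the mutant with an overlap again at WT replicate 6. These percentiles describe the brightness of spots and not which transcript is more abundant.

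**Figure D2:**
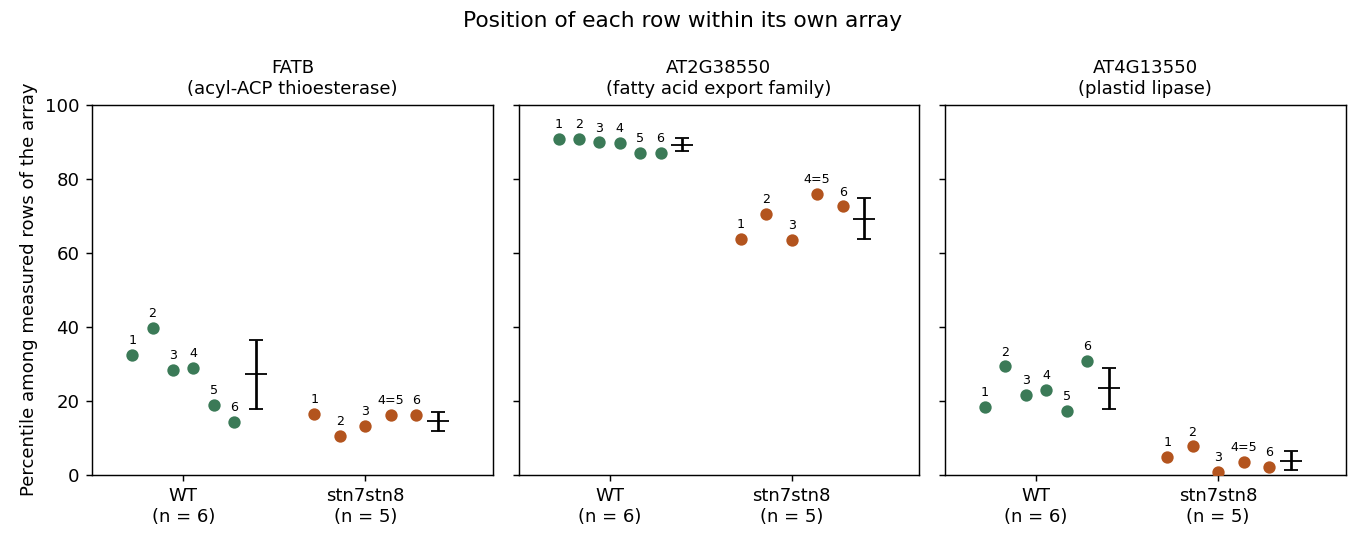
Percentile of each gene's row among the measured rows of its own array (vertical axis), for WT (green) and stn7stn8 (orange), with replicate numbers and the mean ± SD in black (n = 6 and 5). AT2G38550 drops from 87.0 or above to 76.0 or below, AT4G13550 from 17.1 or above to 7.63 or below, and FATB overlaps at WT replicate 6.

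Within WT, FATB and AT2G38550 shared a pattern that AT4G13550 lacked. Both were lowest in WT replicates 5 and 6, below each of WT replicates 1 to 4: the mean of the pair was lower by 0.66 for FATB and by 0.36 for AT2G38550 (log2). For AT4G13550 the same comparison gave 0.022, with replicate 5 the lowest and replicate 6 the highest WT array. WT replicates 5 and 6 were both below all of replicates 1 to 4 in 23.0% of tested rows and both above them in 28.9%, so this split touches many rows. WT arrays with consecutive numbers were close for AT2G38550, with gaps of 0.01, 0.01 and 0.00 within the pairs 1 and 2, 3 and 4, and 5 and 6. For FATB these gaps were 0.25, 0.02 and 0.25, and for AT4G13550 they were 0.45, 0.05 and 0.57. Averaging consecutive WT arrays could not change the log2 differences of the 3 genes, because each had all 6 WT values, in equal pairs. Only the SE could move. It was then 0.187 for FATB, 0.157 for AT2G38550 and 0.53 for AT4G13550, against 0.173, 0.125 and 0.392 in the main fit. Rows called were then 542 higher and 468 lower, against 766 and 632. After each group mean was subtracted, values correlated over the 11 arrays with r = 0.68 between FATB and AT2G38550 (0.95 within WT, n = 6, and 0.18 within stn7stn8, n = 5), 0.21 between AT2G38550 and AT4G13550 and -0.06 between FATB and AT4G13550. These r are descriptions, since the arrays are not shown to be separate plants.

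Among 626 other rows with 1 gene name and values on all 11 arrays, those whose normalized profile was most like each gene were found by Pearson's r. For FATB they were AT1G79220 (r = 0.954), CHL (AT3G47860), the chloroplast lipocalin (r = 0.949), and AT1G78620, the phytyl phosphate kinase VTE6 of tocopherol synthesis (r = 0.938). The same 3 led after subtraction of the group means, with r from 0.896 to 0.916. For AT2G38550 they were AT2G23070, the plastid casein kinase 2 alpha subunit (r = 0.973), AT2G37580 (r = 0.946) and AT2G04700, the catalytic subunit of ferredoxin-thioredoxin reductase (r = 0.938). After subtraction of the group means none of these was among its first 3, which were CBL, the cystathionine beta-lyase of methionine synthesis (r = 0.900), AT4G02800 and AT2G06040 (both r = 0.898). For AT4G13550 they were AT2G43180 (r = 0.930), AT1G13370 (r = 0.920) and CCL (r = 0.912). Within groups its first 3 were AT3G58830, a phosphatase of plastid phosphatidylglycerol synthesis (r = 0.892), SRX, the sulfiredoxin that repairs peroxiredoxin (r = 0.852), and AT1G01080 (r = 0.817). Only some of these genes are given a description here, and whether the genes share a function was not tested. All arrays were normalized together, and these r describe profiles on this array set only.

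The rest of the pathway was barely covered. Of 124 genes in 6 lists of fatty acid synthesis, acyl release and export, plastid lipases, plastid glycerolipids, fatty acid breakdown and oxylipins, 7 had a row of their own. These 7 include the 3 genes described here, 14 further genes shared a row with others, and 103 had no row that names them. In the limma fit over all rows, 43.3% of rows passed an adjusted p of 0.05, with 766 (23.7%) higher and 632 (19.6%) lower in stn7stn8. The split between directions moved to 1814 and 281 on the deposited values and to 631 and 860 when each array was centred on its median. Of the 3 other lipid genes tested, 0 passed, and 0 had an unadjusted p under 0.05 in limma.

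The 3 other lipid genes belong to steps before and beside FATB. AT3G56130 (BADC1), an inactive relative of a subunit of acetyl-CoA carboxylase that restrains fatty acid synthesis, was listed at 0 in stn7stn8 replicate 1, which was treated as missing. It averaged -3.48 ± 0.20 (SD, n = 6) in WT and -3.42 ± 0.23 (n = 4) in stn7stn8, a log2 difference of 0.057 with a 95% interval from -0.24 to 0.36 (adjusted p = 0.760, limma). AT1G24360 (KAR), the ketoacyl-ACP reductase of the elongation cycle, was at -2.96 ± 0.13 (n = 6) and -2.94 ± 0.27 (n = 5), a difference of 0.023 with an interval from -0.25 to 0.30 (adjusted p = 0.902, limma). On the deposited values both passed, at 0.65 and 0.63 (adjusted p = 0.00947 and 0.00773, limma), beside a median row at 0.50. AT3G61680 (PLIP1), a plastid phospholipase, was very dim at -4.66 ± 0.82 (n = 6) and -4.09 ± 0.94 (n = 5), and its difference of 0.58 had an interval from -0.45 to 1.6 (adjusted p = 0.347, limma).

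**Figure D3:**
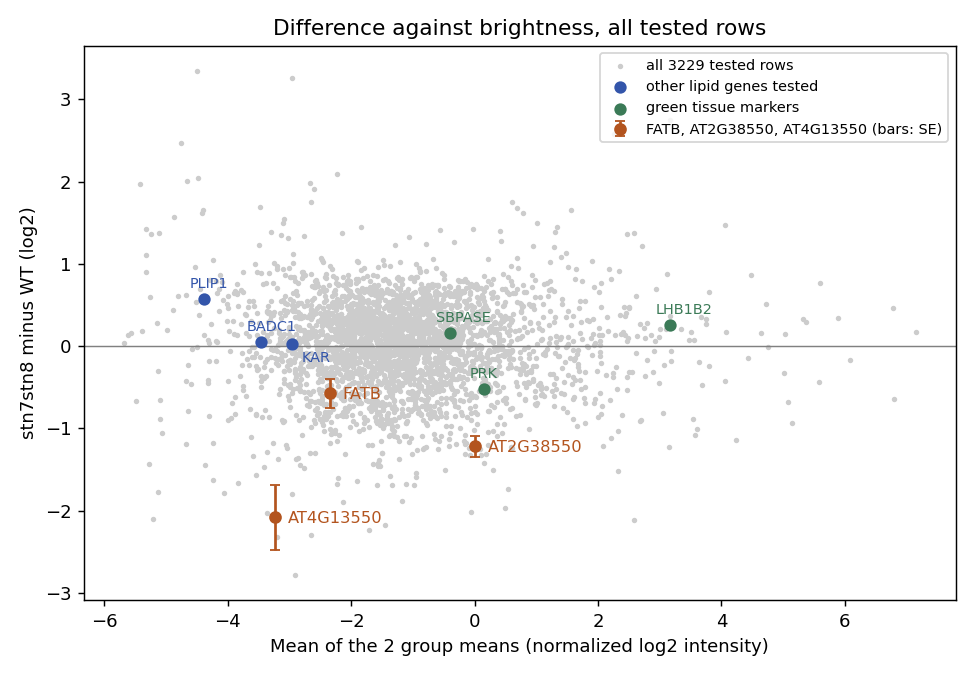
Log2 difference of stn7stn8 minus WT (vertical axis) against the mean of the 2 group means in normalized log2 intensity (horizontal axis) for all 3229 tested rows in grey. FATB, AT2G38550 and AT4G13550 (orange, bars are the SE) lie at -0.57, -1.22 and -2.08, the 3 other lipid genes (blue) between 0.023 and 0.58, and the green tissue markers between -0.52 and 0.26.

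Of 12 markers of green tissue, 3 were measured on a row of their own and 1 of these fell, where 19.6% of all tested rows did. PRK, the phosphoribulokinase of the Calvin cycle, went from 0.41 ± 0.27 (SD, n = 6) to -0.10 ± 0.18 (n = 5; adjusted p = 0.0101, limma; -0.30 with adjusted p = 0.0608 on the deposited values). LHB1B2 of the antenna gave 0.26 (adjusted p = 0.118, limma) and SBPASE of the Calvin cycle 0.16 (adjusted p = 0.510, limma), and both turned negative with arrays centred on their medians. LHB1B2 passed as lower there, at -0.47 (adjusted p = 0.0268, limma), and as higher after cyclic loess, at 0.36 (adjusted p = 0.0327, limma). Without scaling SBPASE passed as higher, at 0.50 (adjusted p = 0.0282, limma). None of 7 markers of roots, seeds and non-green plastids and none of 9 genes of the heat response, in which AT4G13550 is known to be induced, had a row of its own. The part of tissue makeup or growth temperature in the differences was not tested.

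**Figure D4:**
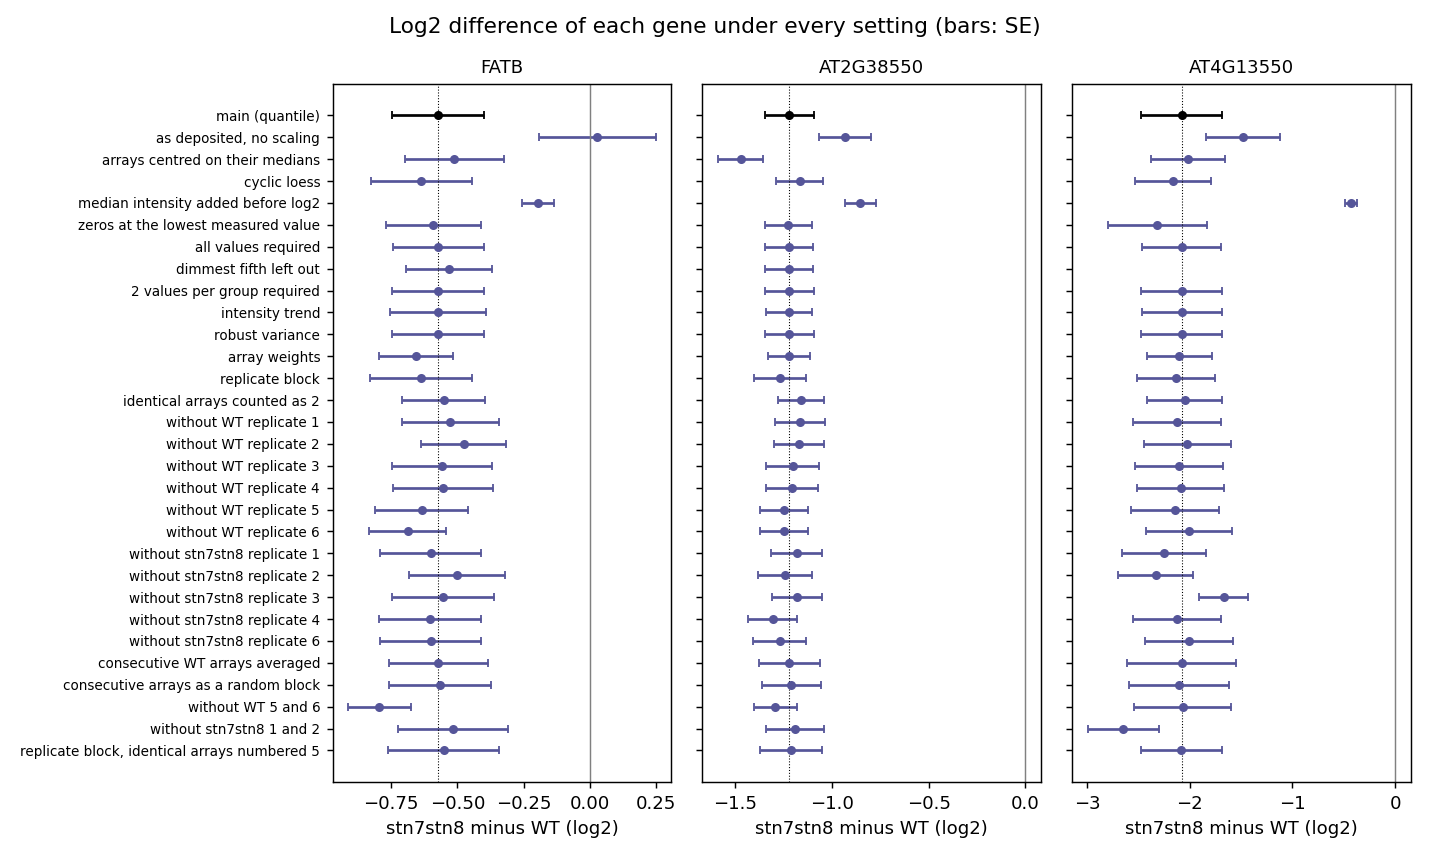
Log2 difference of stn7stn8 minus WT (horizontal axis, own scale per panel, bars are the SE) for FATB, AT2G38550 and AT4G13550 under the main fit (black) and each alternative (blue). FATB crosses 0 only on the deposited values, at 0.028, and AT2G38550 and AT4G13550 stay below 0 throughout, from -1.47 to -0.85 and from -2.65 to -0.43; AT4G13550 has no value where the dimmest rows were left out. The deposited values are the only setting with no further scaling between arrays.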

How the data were processed

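The deposited table gives 1 intensity per row and array on a linear scale. The sources used here do not say how the authors scanned the arrays, subtracted background or scaled the values. Summed intensity lay between 3586 and 3682 per array, and 145 to 192 rows per array were listed at 0. Zeros were treated as missing and the rest taken to log2. Quantile normalization was applied because array medians differed by more than 0.1. Rows with 4 values in each group (3229 of 3439) were fitted with limma 3.58.1 in R 4.3.3 (lmFit and eBayes, two-sided, Benjamini-Hochberg over all tested rows, threshold 0.05). Tables were made with Python 3.11.15 and pandas 2.3.3. The fit was tested on simulated arrays drawn independently, which the real arrays may not be. There it recovered 14% of log2 differences of 0.3, 64% of 0.6, 82% of 1 and 96% of 2, and 5.88% of its calls were false. Far fewer rows were changed there than the 43.3% called in the real fit. The adjusted threshold was therefore stricter, and the recovered shares need not hold for the real fit. In the simulated setting, differences as small as those of most other lipid genes would often be missed. The number of arrays limits the precision.

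The platform annotation supplied gene names: 692 rows carry 1 gene, 870 carry several and 1877 carry none, and a TAIR10.1 gene table held 690 of the 692. The genes, the lists and the rule for naming genes (all measured list members, and the 3 rows most like each gene by r) were chosen with earlier results of these data known. No genome build is named for the array, so no coordinates are given. Alternatives changed scaling, zeros, filters, the variance model, array weights, threshold and arrays used. A block for replicate numbers was a further alternative. Numbering the identical arrays 5 in that block, averaging or blocking consecutive arrays and leaving out pairs of arrays were chosen after seeing the data.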

Additional observations from a re-analysis of the deposited data

Results flagged for a closer look

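AT5G16230, an acyl-ACP desaturase family gene, was outside the test because it was listed at 0 in all 6 WT arrays and in 4 of 5 distinct stn7stn8 arrays. In the identical stn7stn8 replicates 4 and 5 it had a deposited intensity of 0.0545. It was set apart because a value appears in a row that no comparison uses. What a 0 stands for is not stated, so no fold is given. In 18 groups of values, of the 3 genes and the 6 tested list genes, 0 had 1 array far enough from the others to be set apart, where chance gives about 1 in 20 groups.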

How the results depend on the processing

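The 3 genes kept a lower value in stn7stn8 in every alternative that gave one (29 for AT2G38550, 28 for AT4G13550), except that FATB was at 0.028 on the deposited values, against -0.57, and below 0 in the other 28. Shifts beyond 1 SD also came with the median intensity added before log2, at -0.20 for FATB, -0.85 for AT2G38550 and -0.43 for AT4G13550, and for AT2G38550 at -0.93 on the deposited values and -1.47 with arrays centred on their medians. Leaving out 1 array gave -0.69 to -0.48 for FATB, -1.31 to -1.16 for AT2G38550 and -2.33 to -1.67 for AT4G13550. With the dimmest rows left out, AT4G13550 had no value. Rows called higher (766) came to 1814 on the deposited values and 507 at an adjusted p of 0.01, rows called lower (632) to 281 on the deposited values, and without single arrays they were 686 to 756 and 590 to 631. The cause of these shifts was not tested.

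Other lipid genes called numbered 2 on the deposited values and 1 with the replicate block, against 0. Green tissue markers called numbered 2 with arrays centred on their medians, after cyclic loess, with the replicate block and without WT 5 and 6, and 0 at an adjusted p of 0.01, against 1. The sign of small differences that did not pass turned for AT3G56130 after cyclic loess (-0.063), with the median intensity added (-0.065) and with zeros at the lowest measured value (-1.74), and for AT1G24360 in the same 3 settings (-0.052, -0.002 and -0.023), with array weights (-0.056), with the identical arrays as 2 samples (-0.015) and without WT 5 and 6 (-0.027). Without single arrays AT1G24360 ranged from -0.083 to 0.086. With arrays centred on their medians LHB1B2 was at -0.47 and SBPASE at -0.042.

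Same-numbered arrays of the 2 genotypes correlated in their deviations from the group means with r from 0.01 to 0.23 over 5 pairs. In 4 of 5 the closest WT array had the same number. For the identical arrays (4 or 5) it was WT 5 (r = 0.09). The main fit left out this possible pairing. With the replicate block the differences were -0.64 for FATB, -1.27 for AT2G38550 and -2.13 for AT4G13550, and AT3G61680 passed at 0.83 and SBPASE at 0.30 (adjusted p = 0.0172 and 0.0269, limma). Numbering the identical pair 5, a choice made after seeing the data, gave -0.55, -1.21 and -2.08, and then neither of those 2 genes passed.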
